A study of Mus musculus with 18 samples.

Results

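The secreted antagonists of Wnt signalling of the frizzled-related and Dickkopf families and the Wnt inhibitory factor were examined in fibroblasts depleted of HSF1 or SSBP1. The set was 9 genes, Sfrp1, Sfrp2, Sfrp4, Sfrp5, Frzb, Dkk1, Dkk2, Dkk3 and Wif1, out of 19938 gene symbols that could be read on the arrays. The members were taken by family name, each from its brightest probe set that carried this symbol alone, and all 9 were found with 1 such probe set each. The set was proposed because Sfrp1 was known to be far lower in both knockdowns than in the control cells. Differences between a knockdown and the control are therefore given for the 9 genes as descriptions without a p-value, and tests were kept for heat shock and for the comparison of the knockdowns with each other.

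The cells were immortalized MEF cells, mouse embryonic fibroblasts of ICR background, and the study asked how HSF1, the main heat shock transcription factor, and SSBP1, the single-stranded DNA-binding protein of mitochondria, shape the transcriptional response to heat. Adenovirus carried a scrambled RNA (SCR) or an shRNA, a short hairpin that depletes its target, for HSF1 (HSF1-KD) or for SSBP1 (SSBP1-KD), so that all groups, SCR included, had been infected. Virus was left on the cells for 2 h and normal medium for a further 70 h. The cells then stayed at 37 °C (Cont) or spent 1 h at 42 °C as heat shock (HS), and each of the 6 groups was measured on 3 Affymetrix Mouse Gene arrays, 18 in all. Each target was depleted with 1 hairpin in 1 immortalized line. No label says that the 3 arrays of a group came from separate cultures, so p-values measure the spread between these arrays, which may be technical.

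Wnt proteins are secreted ligands that bind Frizzled receptors together with the co-receptors LRP5 or LRP6, and the canonical branch of the pathway acts by keeping β-catenin from degradation. Secreted frizzled-related proteins carry a cysteine-rich domain like that of the Frizzled receptors and bind Wnt ligands outside the cell, as does Wif1 through a domain of its own. Dkk1 and Dkk2 bind LRP5 and LRP6 instead, and Dkk3 is the divergent member of the Dickkopf family. Fibroblasts and other mesenchymal cells are common sources of these proteins.

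RefSeq promoter windows of 300 bases, most of them before the transcription start, in assembly GRCm38.p6 were at hand for Sfrp2, Sfrp5, Frzb, Dkk1, Dkk2 and Wif1. Sfrp2 and Frzb are printed 5′ to 3′ because, among these 6, they differed most between the knockdowns. The Sfrp2 window lies at chr3:83766071-83766370 on the plus strand and holds 22 CG dinucleotides, and the Frzb window lies at chr2:80447347-80447646 on the minus strand and holds 20. Capitals mark matches to the motifs searched on both strands, the TCF/LEF core CTTTGA and the GC box GGGCGG in Frzb, and Sfrp2 matched none.
Sfrp2: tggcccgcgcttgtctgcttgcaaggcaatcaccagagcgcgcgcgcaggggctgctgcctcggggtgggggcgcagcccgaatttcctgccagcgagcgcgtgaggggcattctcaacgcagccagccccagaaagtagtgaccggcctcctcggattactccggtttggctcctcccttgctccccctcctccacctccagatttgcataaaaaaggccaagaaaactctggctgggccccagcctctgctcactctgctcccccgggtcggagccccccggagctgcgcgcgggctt
Frzb: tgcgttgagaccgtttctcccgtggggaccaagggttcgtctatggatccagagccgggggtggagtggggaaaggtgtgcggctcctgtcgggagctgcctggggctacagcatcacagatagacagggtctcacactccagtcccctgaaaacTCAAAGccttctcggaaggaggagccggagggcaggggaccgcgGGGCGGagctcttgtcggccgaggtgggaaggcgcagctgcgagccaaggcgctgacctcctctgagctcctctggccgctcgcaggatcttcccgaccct
Heat shock elements were searched as GAANNTTC and TTCNNGAA, which stood in 7.86% and 8.52% of 32851 promoter windows of the same length, and neither stood in the 6 windows of the set. CTTTGA was found in Dkk1 and Frzb (16% of all windows), TATAAA in Dkk1, Dkk2 and Wif1 (13.6%), and GGGCGG in Sfrp5, Frzb, Dkk2 and Wif1 (35.7%). The 2 heat shock element forms share letters where GAA and TTC units lie side by side. A match describes letters in the window and nothing about binding.

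The arrays had medians between 7.88 and 7.94 on the log2 scale, and the lowest correlation within a group was 0.985. SSBP1-KD Cont replicate 1 stood apart, with a mean absolute residual of 0.152 against 0.0700 to 0.110 for the other arrays. Several, but not all, of the results that use it are also given without it. Ssbp1 was 0.22 lower (log2) in SSBP1-KD than in SCR in Cont (limma, adjusted p = 0.0555) and 0.41 lower in HS (adjusted p = 0.00155). Heat also lowered Ssbp1, by 0.36 in SCR, 0.29 in HSF1-KD and 0.55 in SSBP1-KD (adjusted p = 0.00614, 0.0203 and 0.000642). The Ssbp1 mean in SSBP1-KD Cont (9.20) was above that in SCR HS (9.06). Hsf1 was not analysed here, and its knockdown was checked through Hspa1a, the inducible HSP70 gene, which rose by 4.31 with heat in SCR, 3.42 in SSBP1-KD and 0.55 in HSF1-KD. Of 11 fibroblast markers, 10 were brighter than the median probe set, against 1 of 6 endothelial and 1 of 7 macrophage and leukocyte markers. So were 3 of 5 smooth muscle and myofibroblast, 2 of 7 epithelial and 2 of 5 measured cartilage and bone markers. Skeletal muscle, neural and fat markers had 1 of 4 each.

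Sfrp1, Sfrp2, Sfrp4 and Dkk3 had probe sets brighter than the median of all probe sets, and these 4 were lower in each knockdown than in SCR, with and without heat. The group means of Sfrp1, which encodes a frizzled-related protein that binds Wnt ligands, spanned 1.91 log2 units. For Sfrp1 the 3 arrays read 11.92, 12.01 and 12.27 in SCR Cont, 11.66, 12.10 and 12.08 in SCR HS, 10.48, 10.44 and 10.50 in HSF1-KD Cont, 10.18, 10.24 and 10.04 in HSF1-KD HS, 10.08, 10.27 and 10.13 in SSBP1-KD Cont, and 10.11, 10.20 and 10.23 in SSBP1-KD HS. Every knockdown array lay below every SCR array. The Sfrp1 mean was 12.07 ± 0.180 (SD, n = 3) in SCR Cont, 11.95 ± 0.250 in SCR HS, 10.48 ± 0.0278 in HSF1-KD Cont, 10.18 ± 0.0608 in SSBP1-KD HS, 10.16 ± 0.0963 in SSBP1-KD Cont and 10.15 ± 0.102 in HSF1-KD HS. In this order the SCR groups overlapped each other, HSF1-KD Cont stood below SCR and above the last 3 groups, and those 3 overlapped. Sfrp1 was 3.01 times lower in HSF1-KD than in SCR in Cont (log2 difference −1.59, SE 0.11) and 3.46 times lower in HS (−1.79). It was 3.75 times lower in SSBP1-KD in Cont (−1.91) and 3.40 times lower in HS (−1.77). Counted from the most negative of 19938 symbols, Sfrp1 stood at rank 2 for HSF1-KD and rank 8 for SSBP1-KD in Cont, and at ranks 9 and 11 in HS. Both knockdowns were compared with the same SCR arrays, and the ranks describe the gene that the set was chosen for.

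**Figure D1:**
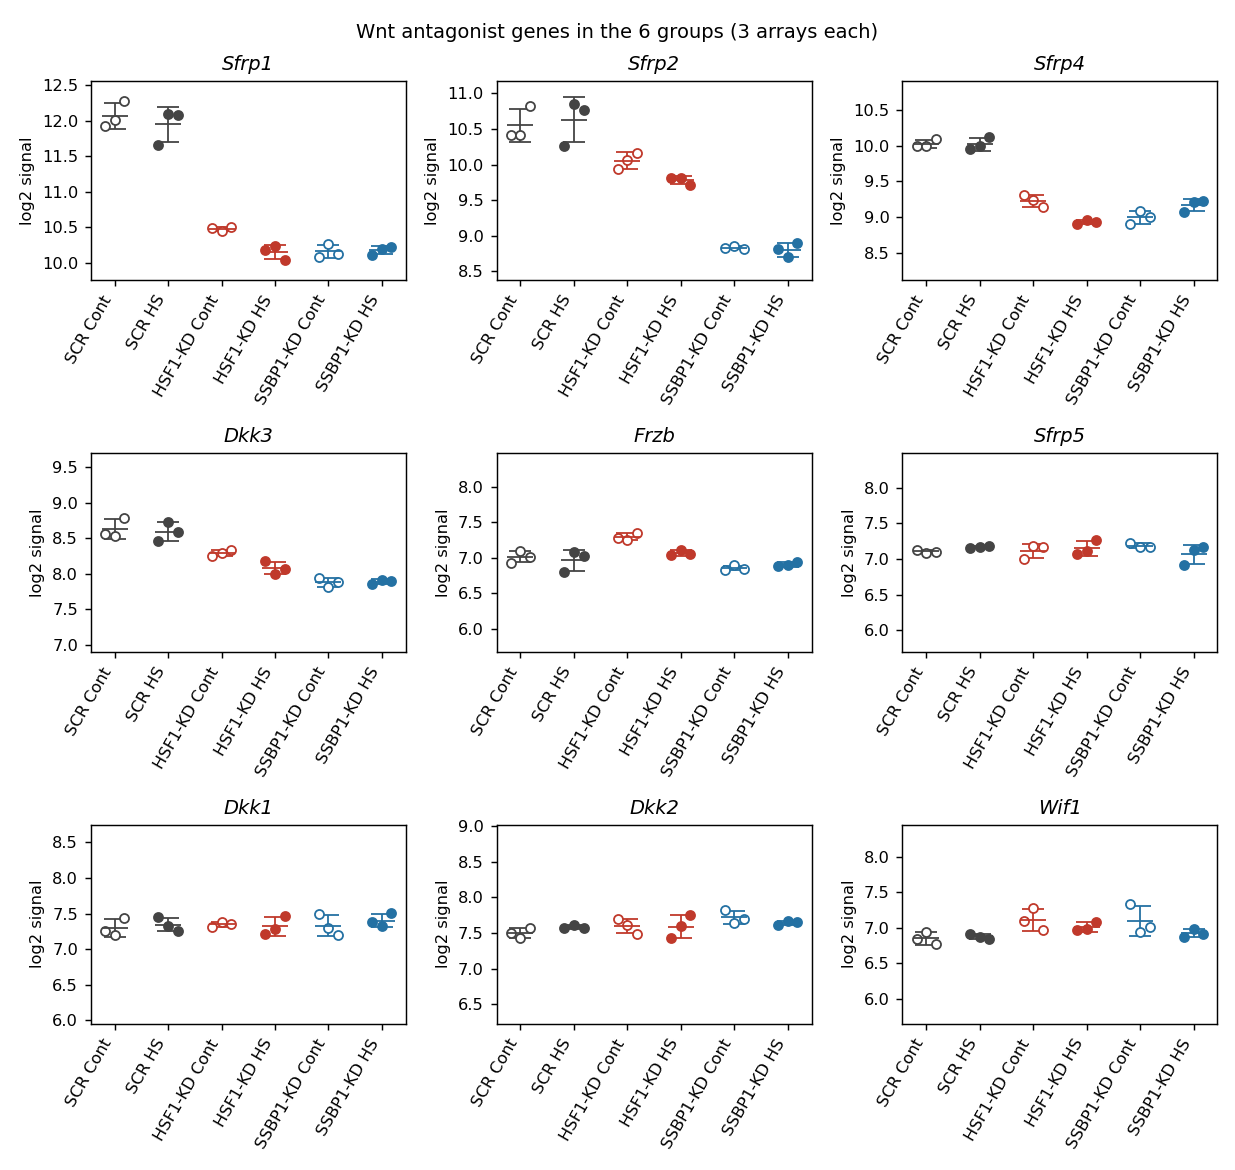
Log2 signal of the 9 Wnt antagonist genes (y axis, each panel spanning the same number of log2 units) in the 6 groups (x axis). Circles are single arrays, open in Cont and filled in HS, and bars give the mean and SD of 3 arrays. Sfrp1, Sfrp2, Sfrp4 and Dkk3 step down from SCR to both knockdowns, with Sfrp1 group means from 12.07 to 10.15, while the other 5 genes stay within 0.44 log2 units between group means.

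Sfrp2, a close relative of Sfrp1 in sequence, fell into steps by knockdown. Its signals were 10.42, 10.42 and 10.82 in SCR Cont, 10.27, 10.85 and 10.77 in SCR HS, 9.94, 10.06 and 10.17 in HSF1-KD Cont, 9.81, 9.81 and 9.72 in HSF1-KD HS, 8.82, 8.86 and 8.82 in SSBP1-KD Cont, and 8.81, 8.70 and 8.89 in SSBP1-KD HS. SCR was highest, HSF1-KD intermediate and SSBP1-KD lowest, with no array of one kind of cell among those of another. Against SCR, Sfrp2 was 1.41 times lower in HSF1-KD in Cont (log2 difference −0.50, SE 0.13) and 1.80 times lower in HS (−0.85). In SSBP1-KD it was 3.29 times lower in Cont (−1.72) and 3.54 times lower in HS (−1.83).

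Sfrp4, a frizzled-related protein of the subfamily that also holds Frzb, read 10.00, 10.00 and 10.10 in SCR Cont, 9.95, 10.00 and 10.12 in SCR HS, 9.31, 9.23 and 9.15 in HSF1-KD Cont, 8.90, 8.96 and 8.92 in HSF1-KD HS, 8.91, 9.09 and 8.998 in SSBP1-KD Cont, and 9.07, 9.21 and 9.23 in SSBP1-KD HS. The SCR arrays lay above all knockdown arrays, and the knockdowns overlapped each other over Cont and HS. Sfrp4 was 1.74 times lower in HSF1-KD in Cont (log2 difference −0.80, SE 0.06) and 2.13 times lower in HS (−1.09), and 2.05 and 1.80 times lower in SSBP1-KD (−1.04 and −0.85).

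Dkk3 read 8.56, 8.53 and 8.79 in SCR Cont, 8.46, 8.73 and 8.59 in SCR HS, 8.24, 8.29 and 8.34 in HSF1-KD Cont, 8.17, 8.002 and 8.07 in HSF1-KD HS, 7.94, 7.81 and 7.88 in SSBP1-KD Cont, and 7.86, 7.91 and 7.902 in SSBP1-KD HS. As for Sfrp2, SCR was highest and SSBP1-KD lowest without overlap. Dkk3 was 1.26 times lower in HSF1-KD in Cont (log2 difference −0.33, SE 0.08), 1.43 times lower in HS (−0.51), and 1.68 and 1.63 times lower in SSBP1-KD (−0.75 and −0.70).

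Within SCR, replicate 3 in Cont was the highest Cont array for Sfrp1, Sfrp2, Sfrp4 and Dkk3, and replicate 1 in HS was the lowest HS array for the same genes. Without SCR HS replicate 1 the Sfrp1 difference in HS was −1.94 for HSF1-KD and −1.91 for SSBP1-KD, and that of Sfrp2 was −1.03 and −2.01. Without SSBP1-KD Cont replicate 1 the differences of SSBP1-KD from SCR in Cont were −1.87 for Sfrp1, −1.71 for Sfrp2, −0.99 for Sfrp4 and −0.78 for Dkk3.

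The other 5 members had probe sets dimmer than the median, and the deposited table has no call of detection. Frzb, also known as secreted frizzled-related protein 3, read 6.94, 7.10 and 7.02 in SCR Cont, 6.80, 7.08 and 7.02 in SCR HS, 7.28, 7.26 and 7.35 in HSF1-KD Cont, 7.04, 7.11 and 7.06 in HSF1-KD HS, 6.83, 6.89 and 6.84 in SSBP1-KD Cont, and 6.88, 6.90 and 6.95 in SSBP1-KD HS. HSF1-KD Cont was above every other array. Against SCR, Frzb was 0.28 higher on the log2 scale in HSF1-KD Cont (SE 0.06) and 0.16 lower in SSBP1-KD Cont. In HS the arrays overlapped, with Frzb differences of 0.10 in HSF1-KD, or 0.02 without SCR HS replicate 1, and −0.06 in SSBP1-KD. Over all 18 arrays Sfrp5 ranged from 6.92 to 7.27, Dkk1 from 7.19 to 7.51, Dkk2 from 7.43 to 7.82 and Wif1 from 6.77 to 7.33. Wif1 was 0.26 higher in HSF1-KD Cont than in SCR Cont and 0.13 higher in HS (log2 differences, SE 0.09). In SSBP1-KD, where its arrays overlapped those of SCR, Wif1 was 0.24 higher in Cont, or 0.12 without SSBP1-KD Cont replicate 1, and 0.05 higher in HS. Dkk2 was 0.22 higher in SSBP1-KD Cont (SE 0.08) and 0.06 higher in HS, where the arrays overlapped. Sfrp5 and Dkk1 stayed within 0.10 of SCR in each knockdown, with group means that spanned 0.119 and 0.105 log2 units.

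Arrays of knockdown and SCR did not overlap for 6 of the 9 genes in HSF1-KD Cont, 5 in HSF1-KD HS, 7 in SSBP1-KD Cont and 4 in SSBP1-KD HS. Among all symbols the shares were 39.7%, 40.9%, 44.2% and 45.3%, and nothing is read from the counts, since the set was chosen on these comparisons. Fewer cells that express a gene and less RNA per cell cannot be told apart in bulk RNA.

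Fibroblast markers moved with the same comparisons. Of the 11 listed, 7 fell and 1 rose in either knockdown in Cont (limma, adjusted p under 0.05), among them Dcn, the proteoglycan decorin, and the collagen gene Col1a2. Over all symbols 10.1% fell and 10.9% rose in HSF1-KD Cont, and 16.5% fell and 14.6% rose in SSBP1-KD Cont. Dcn was at −0.61 in HSF1-KD against −0.95 in SSBP1-KD, and Col1a2 at −0.76 against −1.08. The mean log2 signal of all 11 fibroblast markers ranged over the arrays from 11.23 to 11.31 in SCR Cont, 11.04 to 11.09 in HSF1-KD Cont and 10.82 to 10.95 in SSBP1-KD Cont. Smooth muscle and myofibroblast markers went apart, with 2 of 5 lower in HSF1-KD Cont and 4 of 5 higher in SSBP1-KD Cont, where Acta2 rose by 0.71 and Actg2 by 1.29. The mean signal of all 5 smooth muscle and myofibroblast markers was 8.75 to 8.92 in SCR Cont, 8.59 to 8.69 in HSF1-KD Cont and 9.41 to 9.46 in SSBP1-KD Cont. Interferon-stimulated genes were higher for 14 of 17 in HSF1-KD Cont and lower for 14 of 17 in SSBP1-KD Cont, with mean signals of 10.01 to 10.05 and 9.11 to 9.25 against 9.58 to 9.67 in SCR Cont. The part of these shifts in the lower Sfrp and Dkk3 signals was not tested.

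The knockdowns were then compared with each other, a comparison that the choice of the set did not name. The choice did rest on Sfrp1 in the same knockdown arrays, so the Sfrp1 test here is not fully apart from it. In Cont, 5 of the 9 genes were lower in SSBP1-KD than in HSF1-KD and none was higher, where 16.6% of all symbols were called lower and 29.4% in either direction. Here called means a Benjamini-Hochberg adjusted p under 0.05 in limma's test over all probe sets. Sfrp2 was 2.33 times lower (log2 difference −1.22, SE 0.13, adjusted p = 8.16e-06). Frzb was lower by 0.44 on the log2 scale (SE 0.06, adjusted p = 0.000125), and Dkk3 by 0.41 (SE 0.08, adjusted p = 0.000896). Arrays of the knockdowns did not overlap for these 3 genes or for Sfrp1 and Sfrp4, 5 of 9 against 39% of all symbols.

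Sfrp1 and Sfrp4 were closer to the threshold. Sfrp4 was lower by 0.24 on the log2 scale (SE 0.06, adjusted p = 0.0134), and Sfrp1 by 0.32 (SE 0.11, adjusted p = 0.0489). Without SSBP1-KD Cont replicate 1 both calls were lost, at −0.19 for Sfrp4 (adjusted p = 0.0554) and −0.28 for Sfrp1 (adjusted p = 0.129), and 3 of the 9 genes stayed called. Leaving out HSF1-KD Cont replicate 1 also ended the Sfrp4 call (adjusted p = 0.0603), and the Sfrp1 call was lost without SSBP1-KD Cont replicate 3 or without any single HSF1-KD Cont array. Array weights and the methods' t-test each ended both calls, and the compared arrays alone ended that of Sfrp4. Over all alternatives the adjusted p of Sfrp1 ran from 0.0222 to 0.129. Sfrp5, Dkk1, Dkk2 and Wif1 differed by −0.02 to 0.12 and were not called.

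In HS, 2 of the 9 genes were called, beside 25.7% of all symbols (14.1% lower, 11.6% higher). Sfrp2 was again lower in SSBP1-KD, 1.97 times (log2 difference −0.98, SE 0.13, adjusted p = 7.64e-05). Sfrp4 lay the other way, 0.24 higher in SSBP1-KD than in HSF1-KD (SE 0.06, adjusted p = 0.0122), a call that was lost without SSBP1-KD HS replicate 2 (adjusted p = 0.0504) or replicate 3 (adjusted p = 0.0551) and by the methods' t-test (0.0562). Sfrp1 differed by 0.03 (95% interval −0.21 to 0.26, adjusted p = 0.925), so that a difference of more than 0.26 in either direction lay outside the interval. Dkk3 was at −0.19 and Frzb at −0.16 (adjusted p = 0.0999 and 0.0998). Dkk3 was called among brighter probe sets (limma, adjusted p = 0.0471), and Frzb by the methods' t-test (adjusted p = 0.0368). Fibroblast markers were lower in SSBP1-KD for 7 of 11 in Cont and 4 of 11 in HS. Smooth muscle markers were higher for 4 of 5 in both, and interferon-stimulated genes lower for 16 of 17 in both. The Cont shares over all symbols were 16.6% lower and 12.9% higher. The part of these marker and interferon shifts in the differences between the knockdowns was not tested.

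**Figure D2:**
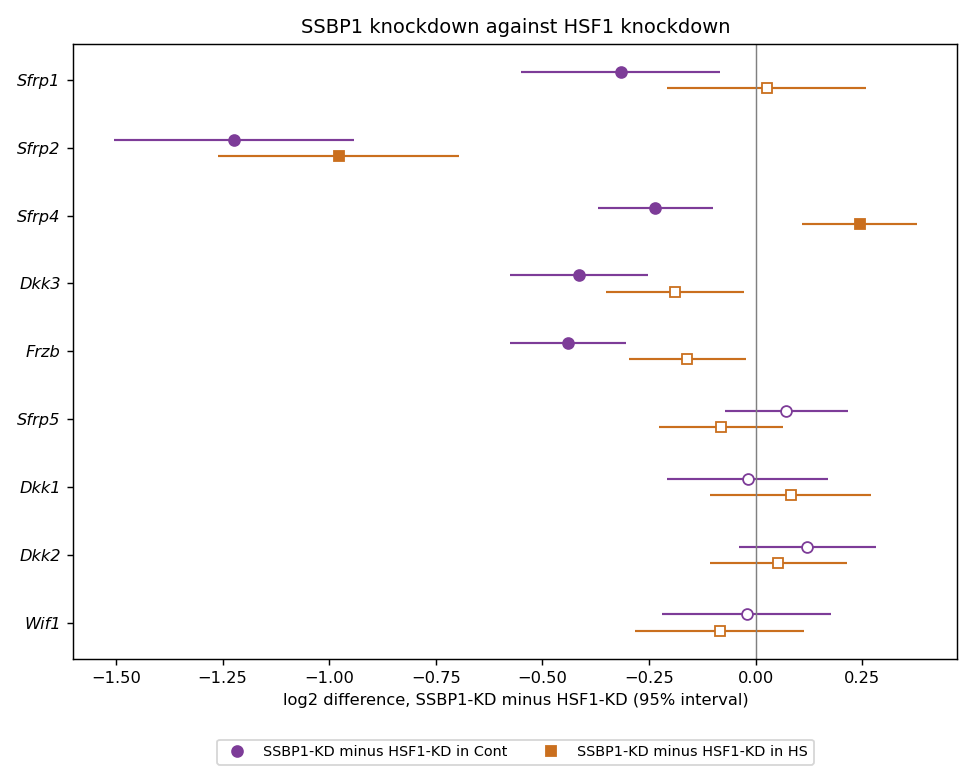
Log2 difference of SSBP1-KD minus HSF1-KD (x axis) for the 9 genes, in Cont (circles) and HS (squares), with 95% intervals from limma. Filled symbols have an adjusted p under 0.05. Sfrp2 lies at −1.22 and −0.98, and Sfrp4 lies at −0.24 in Cont and 0.24 in HS.

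Heat shock was tested within each kind of cell. In SCR none of the 9 genes was called by limma or by the methods' t-test, and 0 had an unadjusted p under 0.05, where 16% of all symbols were called. The differences ran from −0.12 for Sfrp1 (95% interval −0.35 to 0.11, adjusted p = 0.578) to 0.09 for Dkk2. Without SCR HS replicate 1 the Sfrp1 difference was 0.02 (adjusted p = 0.925). In SSBP1-KD again none was called by either test, 1 had an unadjusted p under 0.05 and 6.9% of all symbols were called. That gene was Sfrp4, 0.18 higher with heat (95% interval 0.04 to 0.31, adjusted p = 0.108), with overlapping arrays. Without SSBP1-KD Cont replicate 1 the Sfrp4 difference was 0.13 (limma, adjusted p = 0.297).

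In HSF1-KD, 2 of the 9 genes fell with heat, where 21.4% of all symbols were called and 10.8% were called lower. Sfrp4 fell by 0.30 on the log2 scale (SE 0.06, adjusted p = 0.00333), with all HS arrays below all Cont arrays. Frzb fell by 0.23 (SE 0.06, adjusted p = 0.0204). The Frzb call was lost without HSF1-KD Cont replicate 3 (adjusted p = 0.0819), HSF1-KD HS replicate 1 (0.0718) or HSF1-KD HS replicate 3 (0.0553). Sfrp1 just missed the threshold at −0.32 (SE 0.11, adjusted p = 0.0502, 0.0230 to 0.163 over the alternatives). Dkk3 stood at −0.21 (adjusted p = 0.0653, 0.0326 among brighter probe sets). Sfrp2, at −0.28, was not called here or under any alternative (adjusted p = 0.170, 0.0506 to 0.383 over the alternatives). The HS arrays lay below the Cont arrays for these 5 genes, and the 5 of 9 that did not overlap compare with 37.5% of all symbols.

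Whether the heat response itself differed was tested as an interaction. Between HSF1-KD and SCR no member was called by limma or by the methods' t-test, 1 had an unadjusted p under 0.05, and 0.346% of all symbols were called. All 9 differences were negative, with a median of −0.18 against 0.00087 over all symbols. Nothing is read from the shared sign, since the 9 genes were read on the same arrays. That of Sfrp5 ran from −0.09 to 0.02 with single arrays left out. The largest were −0.35 for Sfrp2 (95% interval −0.75 to 0.05, adjusted p = 0.662) and −0.29 for Sfrp4 (−0.48 to −0.10, adjusted p = 0.339), and Sfrp1 was at −0.20 (−0.53 to 0.13, adjusted p = 0.790). Between SSBP1-KD and SCR none was called by either test, 0 had an unadjusted p under 0.05, and 0.492% of all symbols were called. Sfrp1 was at 0.14 (95% interval −0.19 to 0.47, adjusted p = 0.840). Between the knockdowns, in a comparison added after the data had been seen, Sfrp4 was called, with a heat response 0.48 higher in SSBP1-KD than in HSF1-KD (log2, SE 0.09, adjusted p = 0.0439, 0.0110 to 0.155 over the alternatives), where 0.341% of all symbols were called. The Sfrp4 call was lost without any single HSF1-KD array.

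**Figure D3:**
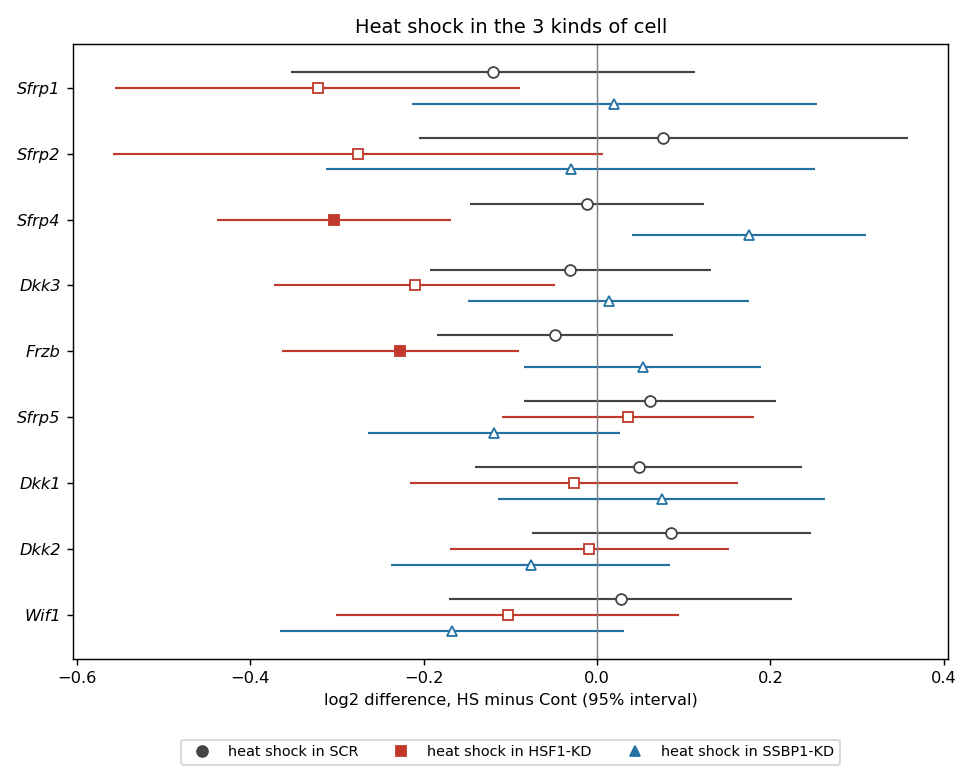
Log2 difference of HS minus Cont (x axis) for the 9 genes in SCR (circles), HSF1-KD (squares) and SSBP1-KD (triangles), with 95% intervals from limma. Filled symbols have an adjusted p under 0.05, which holds for Sfrp4 (−0.30) and Frzb (−0.23) in HSF1-KD.

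The rest of the Wnt pathway was read from lists by role. Frizzled receptors, which the ligands bind, were lower for 5 of 10 and higher for 1 in HSF1-KD Cont, where 10.1% of all symbols were lower and 10.9% higher. In SSBP1-KD Cont 6 of 10 were lower and 0 higher, where 16.5% of all symbols were lower and 14.6% higher, and 5 were lower without SSBP1-KD Cont replicate 1. The median Frizzled difference was −0.19 in HSF1-KD and −0.34 in SSBP1-KD, against 0.03 and 0.05 over all symbols. Fzd4 changed by −1.29 in HSF1-KD (SE 0.08, adjusted p = 3.41e-07) and by −1.44 in SSBP1-KD (adjusted p = 8.67e-08). Fzd2 fell by 0.88 and Fzd1 by 0.70 in SSBP1-KD, and Fzd3 rose by 0.36 in HSF1-KD.

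Co-receptors and alternative Wnt receptors were lower for 2 of 8 in HSF1-KD Cont and 6 of 8 in SSBP1-KD Cont, with none higher. The shares of all symbols called lower were 10.1% and 16.5%. Lrp6 and Lrp5, the co-receptors that Dkk1 and Dkk2 bind, fell by 0.46 and 0.41 in SSBP1-KD (adjusted p = 1.18e-05 and 0.000140). Ptk7, a pseudokinase receptor, fell by 0.44. SSBP1-KD was also below HSF1-KD in Cont for 5 of 8 genes of this list and 4 of 10 Frizzled receptors. Of all symbols 16.6% were lower there.

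Among 19 Wnt ligands, 2 were lower in HSF1-KD Cont, and 4 were lower and 1 higher in SSBP1-KD Cont. Of all symbols 10.1% were lower and 10.9% higher in HSF1-KD Cont, and 16.5% lower and 14.6% higher in SSBP1-KD Cont. Nothing is read from list counts near these shares. Wnt10a fell by 0.58 and Wnt5a, a ligand of the branch that does not act through β-catenin, by 0.45 in SSBP1-KD. The 1 that rose, Wnt7a (0.23), was not called without SSBP1-KD Cont replicate 1. Porcn, the acyltransferase that lipidates Wnt proteins for secretion, fell by 0.34 in HSF1-KD and 0.48 in SSBP1-KD. The R-spondin axis list held Znrf3 and Rnf43 beside the R-spondins and their receptors. In it 2 of 9 rose and 2 fell in HSF1-KD and 3 fell in SSBP1-KD, with the R-spondin receptor gene Lgr4 at −0.49 and −0.61.

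Of 12 other secreted or surface inhibitors, 2 were lower in HSF1-KD Cont and none higher, and in SSBP1-KD Cont 2 were lower and 1 higher. The shares over all symbols were 10.1% lower and 10.9% higher, and 16.5% lower and 14.6% higher. Igfbp4, an IGF-binding protein that also antagonizes Wnt signalling, fell by 0.59 (SE 0.10, adjusted p = 0.000333) and 1.13 (adjusted p = 6.93e-07). Trabd2b, a protease that cleaves Wnt proteins, fell by 0.49 in HSF1-KD and 0.34 in SSBP1-KD.

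Inside the cell, 14 of 26 pathway genes fell and 2 rose in HSF1-KD Cont, against 6 and 3 in SSBP1-KD Cont. Over all symbols 10.1% fell and 10.9% rose in HSF1-KD Cont, and 16.5% fell and 14.6% rose in SSBP1-KD Cont. With array medians set equal 1 rose in either knockdown, as did 1 in SSBP1-KD without SSBP1-KD Cont replicate 1. Bcl9, a β-catenin co-factor, fell by 0.74 in HSF1-KD (adjusted p = 3.41e-07), and the Groucho-type co-repressor genes Tle3 and Tle4 fell by 0.43 and 0.40. SSBP1-KD exceeded HSF1-KD for 12 of the 26 in Cont (12.9% of all symbols) and was lower for 3 (16.6%). Without SSBP1-KD Cont replicate 1 it was higher for 10 and lower for 4.

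Of 14 measured genes listed as β-catenin targets, 2 rose and 3 fell in HSF1-KD Cont, while 7 rose and 1 fell in SSBP1-KD Cont. Over all symbols 10.9% rose and 10.1% fell in HSF1-KD Cont, and 14.6% rose and 16.5% fell in SSBP1-KD Cont. With array medians set equal 1 rose in HSF1-KD Cont. Fosl1, an AP-1 subunit, rose by 1.09 in SSBP1-KD (adjusted p = 6.29e-06) and Myc by 0.60. Ccn4, a matricellular protein also called WISP1, fell in both, by 0.60 and 0.48. Several of these targets, among them Myc, Jun, Fosl1 and Ccnd1, answer to many other signals. In HS the counts in HSF1-KD were 3 higher and 6 lower, where 13.1% of all symbols were higher and 10.7% lower. In SSBP1-KD HS they were 4 and 3, where 14.3% were higher and 14.4% lower.

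With heat, the Frizzled list showed 6 of 10 lower in HSF1-KD, 2 lower and 1 higher in SCR and 1 lower in SSBP1-KD. Among all symbols 10.8% fell in HSF1-KD, 8.34% fell and 7.63% rose in SCR, and 2.82% fell in SSBP1-KD. Fzd8 fell by 0.48 in HSF1-KD and 0.41 in SCR, and Fzd2 by 0.40 and 0.30. Genes of other lists were also called with heat in HSF1-KD, lower as for Lrp5 (−0.35) or higher as for Dact1 (0.42). No Frizzled receptor was called by limma for a difference in heat response between the knockdowns and SCR or between the knockdowns.

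**Figure D4:**
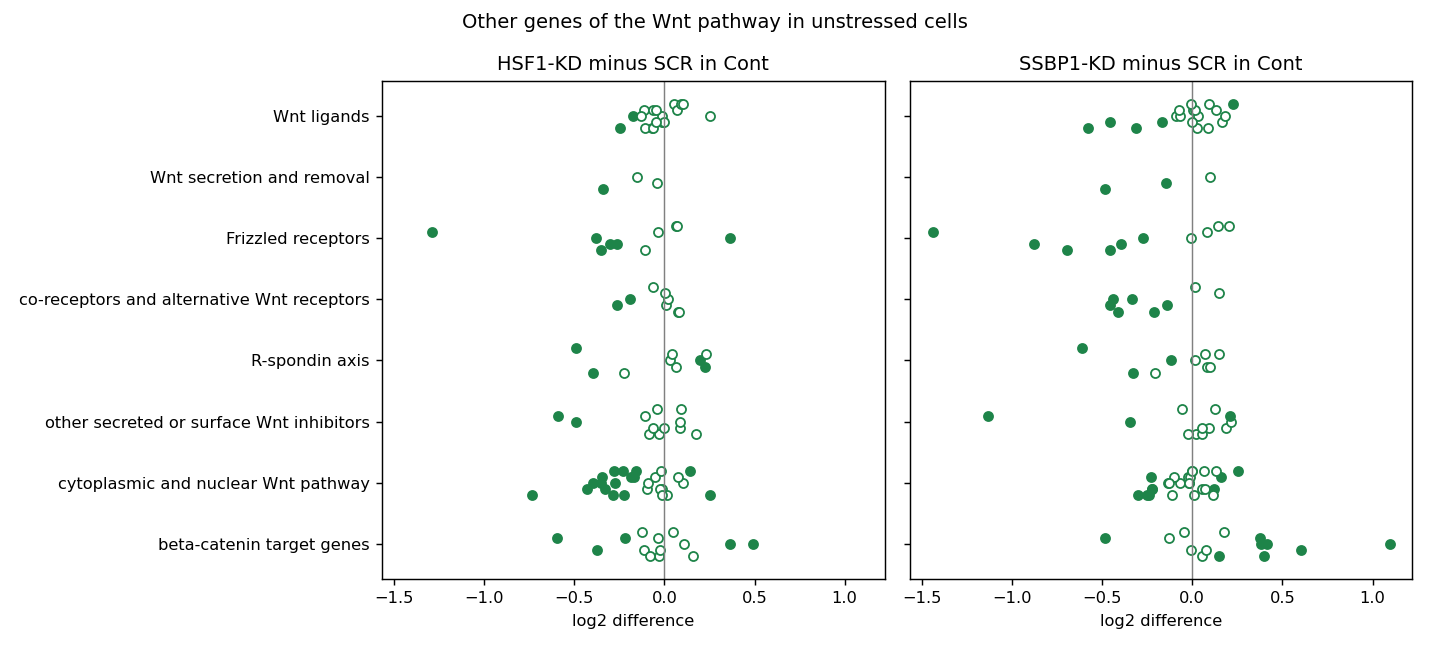
Log2 difference from SCR in Cont (x axis) for each measured gene of 8 Wnt pathway lists (rows), in HSF1-KD (left) and SSBP1-KD (right). Filled circles have an adjusted p under 0.05 in limma, and vertical offsets only separate points. Fzd4 is the leftmost Frizzled point, at −1.29 and −1.44, and Fosl1 the rightmost target in SSBP1-KD, at 1.09.

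The genes whose pattern was most like that of Sfrp1 were found by the root mean square difference of log2 signals over the 18 arrays after each gene's mean was removed. The nearest 5 were Plxna4, a semaphorin receptor (0.161), Ptn, the secreted growth factor pleiotrophin (0.169), Fzd4 (0.195), Lrrn4, a leucine-rich repeat gene (0.213), and Ptprz1, a receptor tyrosine phosphatase (0.214). The group means of Fzd4 were 9.63 in SCR Cont, 9.51 in SCR HS, 8.35 in HSF1-KD Cont, 8.05 in HSF1-KD HS, 8.20 in SSBP1-KD Cont and 8.15 in SSBP1-KD HS. Plxna4 went from 10.19 in SCR Cont to 8.65 in HSF1-KD Cont and 8.08 in SSBP1-KD Cont. All 18 arrays share the infection and the submitters' normalization, and the 5 genes are a description without a test.

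Other members of the set were farther away. Sfrp4 ranked 32 among all symbols by this distance (0.405), Sfrp2 ranked 66 (0.475) and Dkk3 ranked 177 (0.574). The 5 dim members lay at 0.850 to 0.935, with ranks from 6570 to 17266.

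**Figure D5:**
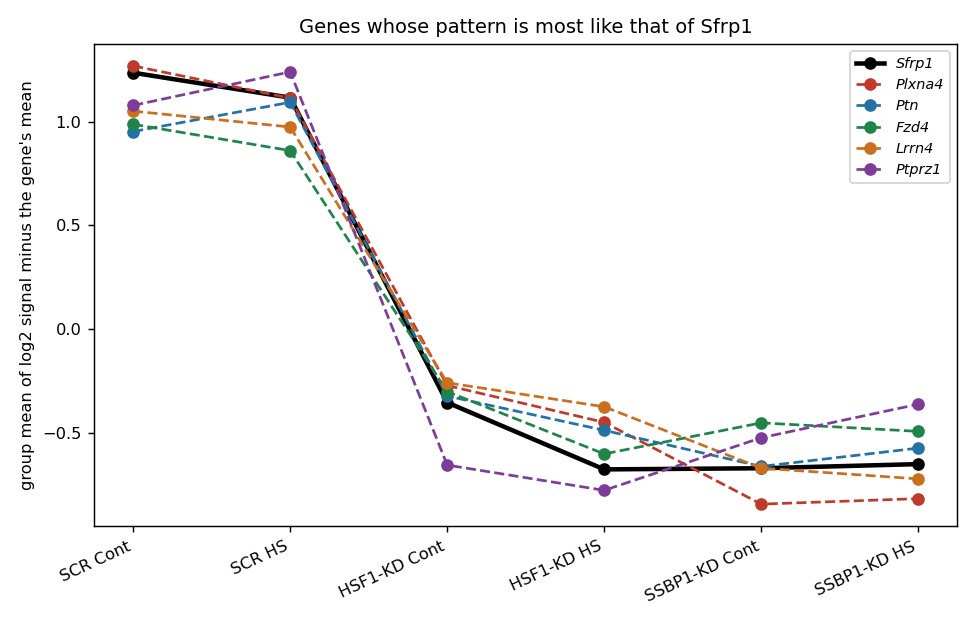
Group means of log2 signal minus each gene's mean (y axis) in the 6 groups (x axis) for Sfrp1 (thick line) and the 5 genes nearest to it over 18 arrays. All drop between SCR HS and HSF1-KD Cont, and the differences from Sfrp1 are 0.161 for Plxna4 to 0.214 for Ptprz1 as root mean squares.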

How the data were processed

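Total RNA (200 ng per sample) from immortalized MEF cells of 6 groups assigned from the labels was hybridized to Affymetrix Mouse Gene 1.0 ST arrays, 3 a group and 18 in all. The values deposited by the authors were log2 signals, with probe sets in rows and arrays in columns, and the submitters' processing notes name RMA and Partek 6.5. Such values are already background-corrected, normalized and summarized over the probes of a probe set, which narrows differences of dim genes, and they were used as deposited. Every column matched a sample. The genome build behind the probe sets is not given in the sources used here. Of 35557 probe sets, 21789 carried 1 symbol, 1621 several and 12147 none, and 21698 names were brought up to date through the RefSeq gene table of GRCm38.p6. A symbol was read from its brightest probe set with that symbol alone.

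limma 3.58.1 (R 4.3.3; lmFit, eBayes) was run over all probe sets, with 1 mean per group, 12 residual and 2.36 prior degrees of freedom, two-sided tests and Benjamini-Hochberg adjustment across the whole table. A gene was called at an adjusted p under 0.05. The script was tested on simulated data with known changes. Figures were drawn with matplotlib 3.10.9 in Python 3.11.15. Arrays have no read depth, and 3 arrays per group limit the precision.

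The members, lists and tests were chosen with earlier results of these data known. Named genes were the 9 members, Ssbp1 and Hspa1a as checks, up to 4 called genes of each list with the largest difference per comparison, and the 5 symbols nearest to Sfrp1 in pattern, skipping symbols of the form Gm with digits or ending in Rik. Marker genes, Lrp5 beside Lrp6, and Wnt7a were named outside this rule, after their values were seen. Replicate numbers were not used to pair samples in the main fit. Alternatives were other scalings, filters, array weights, a replicate block, the compared arrays alone, the methods' t-test and leaving out each array.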

Additional observations from a re-analysis of the deposited data

Results flagged for a closer look

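The heat response of Sfrp4 differed between the knockdowns. Heat lowered Sfrp4 by 0.30 on the log2 scale in HSF1-KD (limma, adjusted p = 0.00333). In SSBP1-KD the gene was 0.18 higher with heat (adjusted p = 0.108), with overlapping arrays, or 0.13 without SSBP1-KD Cont replicate 1 (adjusted p = 0.297). The difference between these responses, SSBP1-KD minus HSF1-KD, was 0.48 (SE 0.09, 95% interval 0.29 to 0.67, adjusted p = 0.0439), the 1 call among the 9 antagonists where 0.341% of all symbols were called. This comparison was added after the data had been seen. Its adjusted p ran from 0.0110 to 0.155 over the alternatives, while the difference itself stayed between 0.41 and 0.53. The call was lost without any single HSF1-KD array, without SSBP1-KD Cont replicate 1 or 3 and without SSBP1-KD HS replicate 2 or 3. Sfrp1 lay at 0.34 in the same comparison (adjusted p = 0.436) and Frzb at 0.28 (adjusted p = 0.226).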

How the results depend on the processing

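No called value of the 9 genes changed direction under any alternative. The number of members called lower in SSBP1-KD than in HSF1-KD in Cont was 5, and it was 3 with array weights, 3 with the methods' t-test and 3 to 5 when single arrays were left out. In HS the members called in either direction were 2, and 1 to 2 with single arrays left out, as for heat shock in HSF1-KD. The heat response of SSBP1-KD minus HSF1-KD called 1 member, and 0 with the replicate block, 0 with the compared arrays alone, 0 with the methods' t-test and 0 to 1 with single arrays left out. The Sfrp1 difference from SCR ranged over the fits without 1 array from −1.66 to −1.49 (HSF1-KD) and −1.98 to −1.81 (SSBP1-KD) in Cont, and from −1.94 to −1.72 and −1.91 to −1.69 in HS, where SCR HS replicate 1 set the largest values. Same-numbered samples showed no strong shared deviation, with residual correlations of −0.276 to 0.171 and 6 of 45 pairs over 0.1. Weak correlations cannot exclude that same-numbered samples were paired, and the labels do not say. Sfrp1 passed the threshold for heat in HSF1-KD with the replicate block (adjusted p = 0.0388), array medians set equal (0.0488), quantile normalization (0.0275), brighter probe sets (0.0247), probe sets with 1 symbol (0.0347), a trended and robust prior (0.0399) and the compared arrays alone (0.0230). Dkk3 passed it there among brighter probe sets (0.0326) and with array weights (0.0480). For SSBP1-KD against HSF1-KD in HS, Dkk3 passed it among brighter probe sets (0.0471) and Frzb with the methods' t-test (0.0368). The cause of these changes was not tested. Of all tested member values, 1160 kept their side of the threshold, 31 lost a call and 11 gained one. Recomputed counts of members called stayed within 1.5 times in 116 cases and moved further, or to or from 0, in 22. Of the member differences given without a test, 476 moved by less than the pooled SD within groups and 8 by more. For 17 of 160 recomputed list counts, added after the data were seen, the count moved by more than 1.5 times. A next brightest probe set could not be tried, since each member has 1. No detection call was at hand for the dimmer probe sets of Sfrp5, Frzb, Dkk1, Dkk2 and Wif1.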
